A study of Mus musculus with 6 samples.

Results

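The S phase and mitosis genes are 44 genes listed by symbol, 21 that act in DNA replication and 23 that act in the G2 phase and mitosis. All 44 were found among the 36528 gene models of the files, and all 44 passed the filter on low counts that left 17121 genes for testing. The rule that lists them uses what the genes are known to do and no measured value, but it was written with earlier results of these data known. Polyadenylated RNA of primary mouse melanocytes, the pigment cells of the skin, was sequenced in 6 libraries, of which 3 carry the genotype label BAP1 KO (knockout) and 3 the label WT (wild type). The BAP1 enzyme works in the nucleus, where it takes ubiquitin off histone H2A, and the labels set cells without the gene beside cells with it. The labels name skin as the tissue and give no strain, age, sex, Cre driver, treatment or time, and they do not say if the 3 libraries of a label stem from different mice or cultures. The p-values below therefore reflect library-to-library spread alone, which may be technical.

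Cells that are about to divide copy their DNA once in S phase and then separate the copies in mitosis. In G1 the origin recognition complex, CDC6 and CDT1 load the MCM ring, the core of the replicative helicase, onto DNA. CDC45 and the GINS complex then activate the ring, and polymerases copy both strands with PCNA as their sliding clamp. Genes of this first set are transcribed mostly at the G1 to S boundary by E2F factors. The genes for the mitotic cyclins, kinases, kinetochore and spindle proteins peak later, in G2 and M, and are transcribed by the MuvB complex together with B-MYB and FOXM1. Because a resting cell makes little of either set, their RNA is widely used to gauge how many cells of a culture are cycling. In bulk RNA a larger share of cycling cells and more of this RNA per cycling cell cannot be told apart. A different mix of cell types cannot be told from either.

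Libraries held 33987690 to 43773769 reads aligned uniquely to gene models. Bap1, the targeted gene, was read at 73.6, 77.3 and 72.5 CPM (the read count over the scaled library total) in the KO-labelled libraries and at 55.7, 55.6 and 55.8 CPM in the WT-labelled ones. Bap1 RNA was thus higher, not lower, in the KO-labelled libraries (log2 difference 0.42, SE 0.042, edgeR adjusted p = 3.89e-06). The counts pool all exons, so they cannot check a deletion of some of them, and each direction below rests on the labels alone. Over all genes tested 39.4% were called higher and 42.1% lower (edgeR adjusted p under 0.05), the background for each count of called genes. The 10 melanocyte markers summed to 63319 to 64142 CPM with the KO label and 6595 to 6690 CPM with the WT label, and all 10 were called higher. The 12 keratinocyte markers, all called lower, summed to 513 to 559 CPM against 9187 to 9372 CPM. The 10 fibroblast markers, also all called lower, summed to 61.2 to 68.7 CPM against 1035 to 1062 CPM. With the WT label the keratinocyte markers thus summed higher than the melanocyte markers, and with the KO label far lower. The labels may therefore differ in their mix of cells. Of 8 myeloid markers 5 were called higher and 3 lower, at sums of 231 to 239 CPM against 55.9 to 63.1 CPM, with the pan-leukocyte gene Ptprc under 1 CPM in every library. Of 8 Schwann cell markers 3 were called higher and 4 lower, shares near those of all genes tested, and their sum was 2396 to 2451 CPM against 1109 to 1223 CPM. Of 8 endothelial and mural markers 6 were tested, of which 1 was called higher and 5 lower. The 8 summed to 65.4 to 69.7 CPM with the KO label and 339.6 to 368 CPM with the WT label, with Pecam1, Cdh5 and Tie1 under 1 CPM in every library. The part of these differences in the results on replication and mitosis genes was not tested.

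Replication and mitosis genes were higher in the KO-labelled libraries. Of the 44 members 42 were called higher, 1 lower and 1 was not called, at an adjusted p under 0.05 from edgeR's quasi-likelihood test over all genes, against 39.4% higher and 42.1% lower over all genes tested. The median log2 difference of the members was 0.86, and that of all genes tested was -0.03. For 42 members the KO-labelled libraries all lay above the WT-labelled ones, which held for 40.1% of all genes tested. More than 2-fold increases were called for 15 members (34.1%), against 13.9% of all genes tested. Summed over the members, the level was 1915, 1914 and 1929 CPM in the KO-labelled libraries and 1007, 999.8 and 976 CPM in the WT-labelled ones. The sums did not overlap. When a log2 difference of 0.5 was taken as the null (glmTreat), 34 members were called higher and 0 lower. The share of all genes called against that null was not computed, so this count has no background beside it.

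Mitosis genes stood further apart between the labels than replication genes. All 23 G2/M members were called higher, with log2 differences from 0.54 for Aurkb to 1.78 for Cenpf and a median of 0.97. Of the 21 S phase members 19 were called higher, Mcm7 was called lower and Gins2 was not called. Their log2 differences ran from -0.34 for Mcm7 to 1.21 for Pola1, with a median of 0.69. Over all genes tested 39.4% were called higher and 42.1% lower, the background for both classes. More than 2-fold increases were called for 10 G2/M members (43.5%) and 5 S phase members (23.8%), against 13.9% of all genes tested. The medians differed by 0.28. Of the 21 S phase members 16 lay under the G2/M median, and of the 23 G2/M members 18 lay over the S phase median. The rest lay on the other side, so the classes overlapped in part. No test was made of the difference of medians, since genes are not replicates. In each library the mean log2 CPM of the G2/M members lay above that of the S phase members, by 0.43, 0.42 and 0.44 in the KO-labelled libraries and by 0.16, 0.18 and 0.11 in the WT-labelled ones. The gap was thus wider in each KO-labelled library than in any WT-labelled one. Summed S phase members stood at 781 ± 2.62 CPM with the KO label and 460.3 ± 2.83 CPM with the WT label, and summed G2/M members at 1138 ± 6.08 CPM and 534 ± 15 CPM (SD, n = 3 each). For 11 members over 10% of their sequence or exons in GENCODE M21 is shared with other genes. The authors' gene models are not given, so part of the shared stretches may not have been counted. Leaving the 11 members out moved the S phase median to 0.78, the G2/M median to 0.98 and the difference to 0.19.

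**Figure D1:**
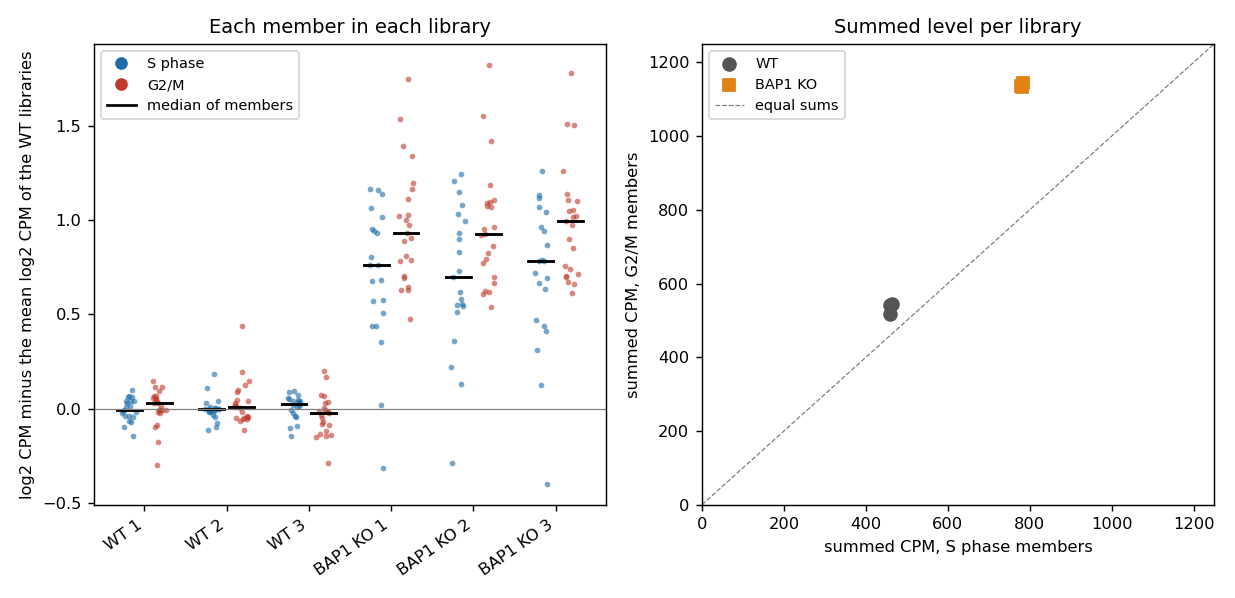
Left, log2 CPM of each member in each library minus its mean log2 CPM in the WT-labelled libraries, with S phase members in blue, G2/M members in red and their medians as black bars; right, the summed CPM of the G2/M members against that of the S phase members, 1 point per library. The WT-labelled libraries lie near the line of equal sums (517 to 544 CPM against 458 to 464 CPM), and the KO-labelled ones lie well above it (1134 to 1145 CPM against 779 to 784 CPM).

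The promoters of the 2 classes differ in sequence. The members were not chosen by motif, but E2F factors and the MuvB complex are known regulators of such genes. The split below is therefore not independent of the list. RefSeq promoter windows on GRCm38.p6, from 250 bases before to 50 bases after the most upstream listed start, were available for 38 of the 44 members, 18 S phase and 20 G2/M. They were searched on both strands for 3 motifs, chosen with the expression results known. The E2F motif was written as TTCCCGC or TTGGCGC or TTCGCGC or TTGCCGC, the cell cycle homology region (CHR), to which the MuvB complex binds, as TTTGAA or TTCGAA, and the box of the factor NF-Y as CCAAT. E2F letters were in 11 of 18 S phase windows (61.1%) and 3 of 20 G2/M windows (15%), those of Ccnb1, Cdk1 and Mki67. They were in 9.72% of all 27025 promoters and in 16% of the 12365 that belong to tested genes. CHR letters were in 16 of 20 G2/M windows (80%) and 4 of 18 S phase windows (22.2%), and in 19.5% of all promoters and 13.9% of those of tested genes. CCAAT was frequent in both classes, in 14 of 18 S phase (77.8%) and 17 of 20 G2/M windows (85%), against 38% of all promoters. CHR and CCAAT occurred together in 15 G2/M windows (75%), 3 S phase windows (16.7%) and 7.73% of all promoters. A match of letters is a description and not a site.

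Motif positions were taken only in the windows printed here, which were picked by hand. Among windows not printed, those of Cdc6 and Cdt1 hold E2F letters and that of Kif20b CHR letters without CCAAT. The 150 bases before the start are shown for 4 S phase members whose promoters hold E2F letters and CCAAT, since these show how the motifs lie beside each other. They are Mcm6 (chr1:128359706-128359855, minus strand), Rrm1 (chr7:102441545-102441694, plus strand), Uhrf1 (chr17:56303187-56303336, plus strand) and Prim1 (chr10:128015065-128015214, plus strand) on GRCm38.p6, each printed 5′ to 3′ along the gene. Capitals mark E2F and CCAAT letters on either strand, which can overlap. In Mcm6 a pair of E2F matches on opposite strands overlap to form each of the longer runs, at 109 and 46 bases before the start. In Prim1 the E2F and CCAAT letters share a base.
Mcm6: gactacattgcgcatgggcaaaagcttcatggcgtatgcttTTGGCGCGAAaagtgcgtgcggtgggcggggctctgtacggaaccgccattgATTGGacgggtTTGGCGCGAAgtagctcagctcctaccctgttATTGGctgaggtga
Rrm1: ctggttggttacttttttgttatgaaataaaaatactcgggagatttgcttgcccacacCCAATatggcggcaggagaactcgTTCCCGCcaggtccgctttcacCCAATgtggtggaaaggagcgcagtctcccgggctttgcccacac
Uhrf1: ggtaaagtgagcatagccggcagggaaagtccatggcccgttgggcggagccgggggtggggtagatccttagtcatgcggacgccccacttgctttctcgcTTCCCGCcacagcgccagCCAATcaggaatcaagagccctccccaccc
Prim1: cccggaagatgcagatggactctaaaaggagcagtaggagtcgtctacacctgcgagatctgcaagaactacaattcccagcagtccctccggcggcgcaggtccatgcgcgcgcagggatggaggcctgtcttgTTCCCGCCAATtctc

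The same stretch is shown for 4 G2/M members with CHR letters there, Cdk1 (chr10:69352913-69353062, minus strand), Cdc20 (chr4:118437344-118437493, minus strand), Kif11 (chr19:37376232-37376381, plus strand) and Ube2c (chr2:164769779-164769928, plus strand). Capitals mark CHR, CCAAT and, in Cdk1, E2F letters. In each of them CHR letters lie close to the start, at 15 bases before it in Cdk1, 18 in Cdc20, 19 in Kif11 and 29 in Ube2c, with CCAAT (or ATTGG, the same box on the other strand) farther upstream. Cdc20 holds a further CCAAT 8 bases before its start, and Cdk1 a further CHR match 71 bases before its own. Cdk1 alone among these 4 also holds E2F letters, 130 bases before its start.
Cdk1: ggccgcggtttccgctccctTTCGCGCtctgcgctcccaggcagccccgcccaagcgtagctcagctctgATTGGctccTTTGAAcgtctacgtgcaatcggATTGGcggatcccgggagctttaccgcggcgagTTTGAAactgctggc
Cdc20: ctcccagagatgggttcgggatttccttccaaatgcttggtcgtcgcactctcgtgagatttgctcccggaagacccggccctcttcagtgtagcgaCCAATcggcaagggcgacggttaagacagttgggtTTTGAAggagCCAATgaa
Kif11: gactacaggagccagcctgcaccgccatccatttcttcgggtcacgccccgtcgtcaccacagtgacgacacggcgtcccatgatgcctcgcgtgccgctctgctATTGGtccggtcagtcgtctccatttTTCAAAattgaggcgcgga
Ube2c: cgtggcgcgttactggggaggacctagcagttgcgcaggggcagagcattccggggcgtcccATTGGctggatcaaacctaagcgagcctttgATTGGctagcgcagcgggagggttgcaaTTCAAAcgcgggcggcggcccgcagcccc

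The MCM ring, whose 6 subunits MCM2 to MCM7 unwind DNA at the fork, did not move as a unit. Of its 6 genes 5 were called higher and Mcm7 lower, against 39.4% called higher and 42.1% lower over all genes tested. Mcm6, with the E2F-bearing promoter shown above, was read at 73.8, 74.6 and 77.4 CPM in the KO-labelled libraries and 35.1, 34.4 and 36.3 CPM in the WT-labelled ones, a log2 difference of 1.09 (SE 0.044, edgeR adjusted p = 1.70e-09). Mcm5 differed by 1.12 (SE 0.053) and Mcm2 by 0.96 (SE 0.041). Mcm3 and Mcm4 differed less, by 0.51 (SE 0.045) and 0.41 (SE 0.044). For each of these 5 genes the KO-labelled libraries all lay above the WT-labelled ones, which held for 40.1% of all genes tested. Mcm7 was read at 24.8, 25.3 and 23.4 CPM in the KO-labelled libraries and 30.0, 30.5 and 32.1 CPM in the WT-labelled ones. The KO-labelled libraries all lay below the WT-labelled ones, which held for 42.6% of all genes tested, and the log2 difference was -0.34 (SE 0.054, edgeR adjusted p = 1.60e-04). It was -0.41 to -0.27 over all alternatives run, and lost the call only against a null of 0.5. Of the 50-base sequences of Mcm7 23.3% occur in other genes, foremost Gm5487. In GENCODE M21 12.6% of its exon bases overlap Ap4m1 on the other strand. Where that stretch was counted, these libraries do not separate the strands. Ap4m1 itself stood at 17.4 ± 0.686 CPM and 17.9 ± 0.223 CPM (SD, n = 3 each; log2 difference -0.04, edgeR adjusted p = 0.482).

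Per length the ring subunits were near each other with the WT label and spread apart with the KO label, apart from Mcm5. On the authors' size-factor-adjusted RPKM, Mcm2, Mcm3, Mcm4, Mcm6 and Mcm7 stood at 9.84 to 13.2 on average in the WT-labelled libraries, with Mcm5 at 5.40 ± 0.298 (SD, n = 3). Under the BAP1 KO label the averages ran from 7.96 ± 0.331 for Mcm7 to 24.5 ± 0.560 for Mcm6. The RPKM ratio of Mcm7 to Mcm2 was 0.372, 0.363 and 0.343 in the KO-labelled libraries and 0.863, 0.871 and 0.910 in the WT-labelled ones. The ratios of the 2 groups did not overlap, and no test was made of them. Shared sequence lowers the level of a gene counted from unique reads, so levels of Mcm7 can be too low in all 6 libraries alike. The E2F motif was present in the promoter windows of Mcm3, Mcm5, Mcm6 and Mcm7 and its letters were not in that of Mcm2.

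**Figure D2:**
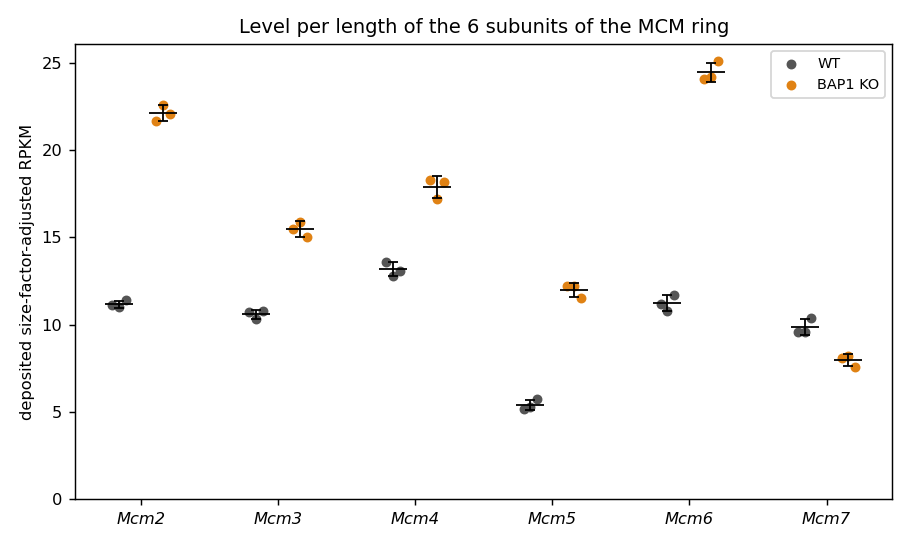
Deposited size-factor-adjusted RPKM of the 6 MCM ring genes in the WT-labelled libraries (grey) and BAP1 KO (orange), 1 point per library, with the mean and SD of 3. Mcm7 is the single subunit that is lower with the KO label, at 7.96 against 9.84, while Mcm6 reaches 24.5 against 11.2.

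The remaining helicase genes lay on both sides of the S phase median. Mcm10, which helps to activate the helicase, rose from 6.18 ± 0.366 to 13.9 ± 0.573 CPM (SD, n = 3 each; log2 difference 1.17 with SE 0.074, edgeR adjusted p = 8.09e-08). Cdc45, an essential partner of the ring, was higher by 0.66 (SE 0.077), and the GINS subunit gene Gins1, read at only 2.07 to 3.68 CPM, by 0.65 (SE 0.11). Gins2, another GINS subunit, was read at 7.66, 8.28 and 8.25 CPM in the KO-labelled libraries and 7.08, 7.61 and 8.03 CPM in the WT-labelled ones. These groups overlapped, and the log2 difference of 0.09 (SE 0.079) did not pass the test (edgeR adjusted p = 0.314). In GENCODE M21 67.3% of the exon bases of Gins2 overlap Gse1 on the other strand, and Gse1 differed by 0.31 (SE 0.043). The deposited counts and RPKM give the Gins2 gene model a length of about 1100 bases against 4097 annotated, so the overlapping part may not have been counted. The licensing members both rose, Cdt1 by 0.79 (SE 0.054) to 23 CPM and Cdc6 by 0.66 (SE 0.088) to 6.67 CPM.

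The 4 members of the replication fork were all called higher, as were 39.4% of all genes tested. Pola1, the catalytic subunit of the primase-linked polymerase, had the largest difference of the S phase members. It was read at 34.5, 35.5 and 36.8 CPM in the KO-labelled libraries and 15.8, 16.6 and 13.9 CPM in the WT-labelled ones (log2 1.21, SE 0.067, edgeR adjusted p = 2.75e-08). Its partner Prim1, the primase subunit that lays down RNA primers, was higher by 0.92 (SE 0.086). Pcna, the sliding clamp, was read at 13.8, 13.7 and 13.1 CPM against 6.88, 7.39 and 7.32 CPM, a log2 difference of 0.91 (SE 0.068). The clamp gene has a near-identical processed copy, Pcna-ps2, which holds 19.1% of its 50-base sequences, so its level from unique reads is uncertain. Fen1, the nuclease that trims the flaps between newly made fragments, was higher by 0.69 (SE 0.046), but 84.2% of its exon bases overlap the antisense gene Gm10143, whose reads cannot be told apart here.

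The 3 genes of nucleotide synthesis were called higher, as were 39.4% of all genes tested. Rrm1 had the highest mean RPKM of the S phase members with either label. The large ribonucleotide reductase subunit gene Rrm1 was read at 159, 160.4 and 162 CPM in the KO-labelled libraries and at 80.9, 78.7 and 76.3 CPM in the WT-labelled ones (log2 1.03, SE 0.039, edgeR adjusted p = 1.11e-09). The small subunit gene Rrm2, the part of the enzyme that is limited to cycling cells, rose from 36.1 ± 2.49 to 61.5 ± 1.68 CPM (SD, n = 3 each; log2 0.77, SE 0.056). Per length Rrm1 exceeded Rrm2 1.42-fold ± 0.0454 with the KO label and 1.19-fold ± 0.0482 with the WT label. Tyms, which makes thymidylate, was higher by 0.58 (SE 0.075). The smallest called increases of the S phase set were Uhrf1, which guides DNA methylation onto new strands, at 0.45 (SE 0.059), and Slbp, which binds the stem-loop of histone mRNA, at 0.29 (SE 0.059). Uhrf1 shares 15.4% of its 50-base sequences with other genes.

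Mitotic cyclins rose to different extents. Ccnb2, a B-type cyclin that activates CDK1, was read at 50.8, 51.6 and 54.8 CPM in the KO-labelled libraries and 20.2, 18.7 and 19.1 CPM in the WT-labelled ones, a 2.71-fold difference (log2 1.44, SE 0.053, edgeR adjusted p = 8.17e-10). Ccna2, the cyclin of S phase and G2, was higher by 0.95 (SE 0.052), and Cdk1, the kinase that both serve, by 0.63 (SE 0.048). The RPKM ratio of Ccnb2 to Cdk1 was 1.66, 1.71 and 1.76 in the KO-labelled libraries and 1.04, 0.980 and 0.920 in the WT-labelled ones. The ratios did not overlap, and no test was made of them. Ccnb1, the other B-type cyclin, was read at 7.01, 5.96 and 6.41 CPM against 2.79, 4.65 and 3.13 CPM (log2 0.87, SE 0.16, edgeR adjusted p = 4.94e-04). It was the most variable member, with a coefficient of variation of 28.2% with the WT label. Copies of Ccnb1, foremost Ccnb1-ps, hold 23.4% of its 50-base sequences, so its level is uncertain. Of the exon bases of Ccna2 12.5% overlap Exosc9, which differed by -0.15 (SE 0.054).

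The mitotic kinase and checkpoint members were all called higher, against 39.4% of all genes tested. Plk1, a kinase needed for mitotic entry and spindle assembly, was read at 26.2, 27.5 and 26.5 CPM in the KO-labelled libraries and 13.0, 12.6 and 13.7 CPM in the WT-labelled ones (log2 1.03, SE 0.058, edgeR adjusted p = 2.88e-08). Copies of Plk1, foremost Plk-ps1, hold 10.4% of its 50-base sequences. The centrosomal kinase gene Aurka was higher by 0.74 (SE 0.064). Aurkb, the kinase of the chromosomal passenger complex, had the smallest difference of the G2/M members at 0.54 (SE 0.059), and Birc5 (survivin), its partner in that complex, was next but one at 0.66 (SE 0.059). The spindle checkpoint genes Bub1 and Bub1b were higher by 1.01 (SE 0.11) and 0.84 (SE 0.048). WT replicate 3 was the lowest library for Bub1, at 10.6 CPM against 14.3 CPM in both other WT-labelled libraries.

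Centromere genes held the largest difference of all 44 members. Cenpf, a large protein of the outer kinetochore that accumulates in G2, was read at 87.0, 91.7 and 89.0 CPM in the KO-labelled libraries and 27.0, 26.5 and 24.4 CPM in the WT-labelled ones, a 3.44-fold difference (log2 1.78, SE 0.051, edgeR adjusted p = 9.73e-11). Cenpe, a kinetochore motor, was higher by 1.08 (SE 0.059), and Cenpa, the centromeric histone H3 variant, by 0.98 (SE 0.089). Per length Cenpf exceeded Cenpe 1.51-fold ± 0.0574 with the KO label and stood at 0.932 of it, ± 0.0429, with the WT label (SD, n = 3 each).

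The 5 spindle members and the 2 members of the anaphase machinery were all called higher, against 39.4% of all genes tested. Nusap1, which bundles spindle microtubules, was read at 30.0, 26.9 and 28.3 CPM in the KO-labelled libraries and 12.8, 11.9 and 10.9 CPM in the WT-labelled ones (log2 1.26, SE 0.071, edgeR adjusted p = 3.02e-08). The motor genes Kif20b, Kif11 and Kif23 were higher by 1.01 (SE 0.079), 0.97 (SE 0.070) and 0.70 (SE 0.059). Tpx2, which activates Aurora A on the spindle, was higher by 0.77 (SE 0.042). Cdc20, the activator of the anaphase-promoting complex, was read at 33.0, 31.0 and 29.2 CPM against 14.3, 14.6 and 14.3 CPM (log2 1.11, SE 0.060), and it shares 10.6% of its 50-base sequences, foremost with Gm7856. Ube2c, the ubiquitin-conjugating enzyme of that complex, rose less, by 0.67 (SE 0.072), and 22.8% of its exon bases overlap Tnnc2, which was under 1 CPM on average under either label.

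Mki67, the gene of the proliferation antigen that coats mitotic chromosomes, had the second largest difference of the 44 members. It was read at 209, 211 and 205 CPM there and at 75.5, 70.0 and 70.9 CPM with the WT label (log2 1.53, SE 0.042, edgeR adjusted p = 7.12e-11). Top2a, the topoisomerase that untangles sister chromatids, was read at 184, 176 and 181 CPM against 85.1, 88.0 and 74.3 CPM, a log2 difference of 1.13 (SE 0.060). Per length Top2a exceeded Mki67 in all 6 libraries, at RPKM ratios of Mki67 to Top2a of 0.598 ± 0.0191 with the KO label and 0.455 ± 0.0413 with the WT label (SD, n = 3 each). Hmgb2, a chromatin protein, had the lowest mean RPKM of the members, 0.552 with the KO label and 0.336 with the WT label. It was read at 1.58 ± 0.0244 and 0.980 ± 0.118 CPM, from 32 to 66 reads per library (log2 0.68, SE 0.15, edgeR adjusted p = 0.00195). Copies of it, foremost Gm4739, hold 18.7% of its 50-base sequences, so its level is uncertain.

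Genes of the same processes outside the 44 were examined through lists chosen for their known roles. Of 46 other replication genes 38 were called higher and 2 lower, and 6 were not called, with a median log2 difference of 0.48, against 39.4% higher, 42.1% lower and a median of -0.03 over all genes tested. Rpa1, the large subunit of the single-strand binding protein, rose most, from 69.2 ± 1.34 to 232 ± 3 CPM (SD, n = 3 each; log2 difference 1.74 with SE 0.038, edgeR adjusted p = 1.05e-11). Atad2 and the polymerase delta subunit gene Pold3 followed at 1.41 (SE 0.065) and 1.22 (SE 0.060). The 2 lower genes were Rnaseh2a, which removes RNA from DNA and shares 12.8% of its 50-base sequences, at -1.12 (SE 0.068), and the clamp loader gene Rfc3 at -0.22 (SE 0.064). Without WT replicate 1 only 1 of the list was called lower.

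Of 82 other mitosis genes 70 were called higher and 6 lower, and 6 were not called, with a median of 0.69, beside the same 39.4% higher and 42.1% lower over all genes tested. Knl1, the kinetochore scaffold that recruits BUB1, was read at 25.4, 23.5 and 25.3 CPM in the KO-labelled libraries and 8.92, 10.3 and 7.03 CPM in the WT-labelled ones (log2 1.5, SE 0.11, edgeR adjusted p = 3.08e-07). Cdca3 and the condensin gene Smc4 were higher by 1.47 (SE 0.062) and 1.42 (SE 0.10). Gtse1, a microtubule-associated protein that restrains p53 in G2, went the other way. It was read at 34.6, 34.8 and 34.3 CPM in the KO-labelled libraries and 89.6, 85.9 and 89.1 CPM in the WT-labelled ones (log2 -1.35, SE 0.041, edgeR adjusted p = 1.71e-10). The inner kinetochore gene Cenpt, at -1.25 (SE 0.061), and Bora, the activator of Aurora A toward PLK1, at -0.62 (SE 0.081), were also lower.

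Among 14 genes for factors that transcribe or repress these sets 9 were called higher and 5 lower (35.7%), with a median of 0.49. The share called lower is near the 42.1% of all genes tested, of which 39.4% were called higher. Without BAP1 KO replicate 3 only 3 were called lower. Rbl2 (p130), the pocket protein of the complex that represses cell cycle genes in resting cells, rose from 83.7 ± 1.57 to 241 ± 4.88 CPM (SD, n = 3 each; log2 difference 1.53 with SE 0.038, edgeR adjusted p = 3.16e-11), and other genes hold 17.1% of its 50-base sequences. The MuvB subunit genes Lin52 and Lin54 rose by 1.36 (SE 0.075) and 1.2 (SE 0.073), whereas Lin9, another MuvB subunit, was lower at -0.52 (SE 0.074). The activating factor gene E2f3 was lower at -0.52 (SE 0.047), and its dimer partner Tfdp1, with 16.8% of its 50-base sequences shared, at -0.48 (SE 0.049). Foxm1, chosen after its values were seen as the activator of mitosis genes, stood at 59.3 ± 2.04 CPM with the KO label and 29.8 ± 2.29 CPM with the WT label (SD, n = 3 each; log2 difference 0.99 with SE 0.060, edgeR adjusted p = 5.73e-08). Mybl2 (B-MYB), likewise chosen, differed by 0.39 (SE 0.094, edgeR adjusted p = 0.00293) and E2f1 by -0.19 (SE 0.054, edgeR adjusted p = 0.00759). Of the 50-base sequences of Mybl2 19.3% are shared with other genes.

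**Figure D3:**
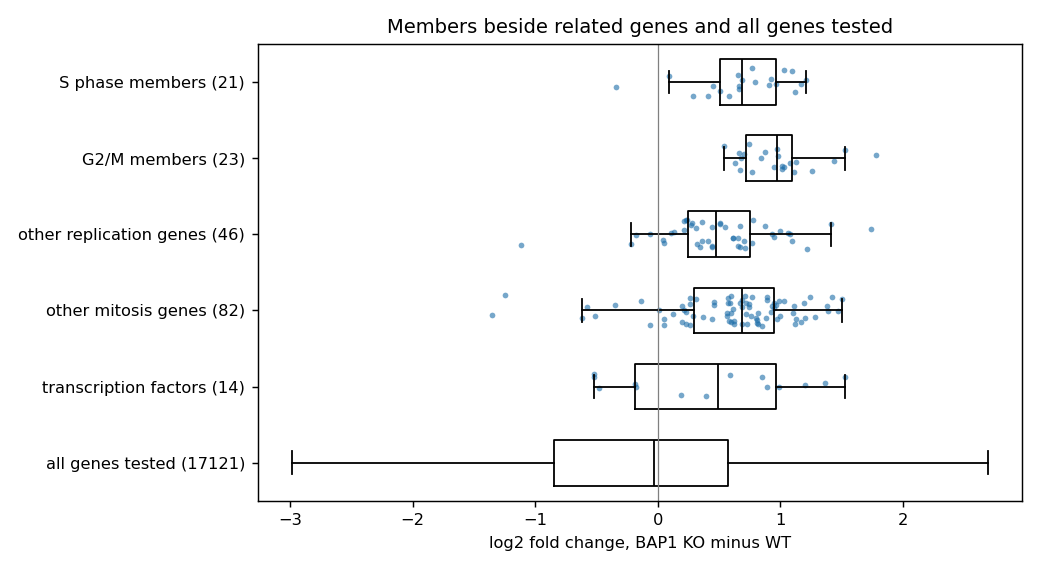
Log2 fold change (BAP1 KO minus WT) of the S phase and G2/M members, of the other replication genes, mitosis genes and transcription factors of the cell cycle, and of all genes tested; boxes show the median and quartiles, whiskers reach 1.5 times the box or the last value, points are genes, and the number of genes is in brackets. Both classes of members and the replication and mitosis lists lie mostly above 0, with medians from 0.48 to 0.97, while all genes tested centre on -0.03.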

How the data were processed

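PolyA RNA was prepared with TruSeq RNA v2, which does not mark strand, and read as single-end 50-base reads on a HiSeq4000, per the labels' protocols. GSNAP and the GRCm38 build were used, per the submitters' processing notes; no source used here gives the aligner's version, the counting tool or the annotation. Each file holds the count of reads aligned uniquely to each gene model and a size-factor-adjusted RPKM, per the file headers. The deposited counts served every test and the deposited RPKM every comparison of levels between genes.

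Gene IDs were named from RefSeq GRCm38.p6 (31049 of 36528) and 77 more from GENCODE M21; 5402 without a name held 1.05% of the reads. Genes passed edgeR's filterByExpr (minimum count 10, minimum total 15), were scaled by TMM, whose factors ran from 0.975 to 1.03, and were then tested in R 4.3.3 by the quasi-likelihood functions glmQLFit and glmQLFTest of edgeR 4.0.16 with no covariate, and p-values were adjusted by Benjamini-Hochberg over all 17121 genes. Each standard error is the size of the log2 difference divided by the root of its F statistic. Libraries of the same label were compared pairwise, and the chi-square per degree of freedom of 2.01 to 17.4 exceeded sampling noise, so no file repeats another. Replicate numbers follow submission order and pair nothing.

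The members and lists were chosen with earlier results of these data known, so no p is given for a list. Every member is described; of the 3 cell cycle lists up to 3 called higher and 3 called lower genes of greatest log2 difference (at least 2 CPM in the higher group) are named, and others are marked as chosen after their values were seen. In Python 3.11.15, GENCODE M21 transcripts gave the share of each gene found elsewhere, as 50-base sequences and as exon overlap. Alternatives were DESeq2 1.42.0 and its size factors, library totals, upper-quartile factors, limma-voom (limma 3.58.1), other filters and thresholds, glmTreat, and leaving out each library. Scaling by the library factors of the authors and leaving out members that share over 10% with other genes were added after the data were seen.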

Additional observations from a re-analysis of the deposited data

How the results depend on the processing

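In the full fit 42 members were called higher and 1 lower, against 39.4% and 42.1% of all genes tested. The same counts of members held with each of the 6 libraries left out in turn. Over the same fits the S phase median was 0.69 to 0.73, the G2/M median 0.93 to 1.01 and their difference 0.19 to 0.32. The called lower genes were 1 to 3 of the other replication genes and 3 to 5 of the transcription factors. The S phase median was 0.70 with DESeq2 or its size factors, 0.72 with no count filter or the authors' library factors, 0.62 with library totals and 0.65 with at least 5 CPM in 3 libraries. The G2/M median was 0.91 with library totals, 0.89 with the 5 CPM filter, and 1.0 with no filter or the authors' factors. The difference was 0.24 with the 5 CPM filter, under which 42 members were tested. Without members sharing over 10% with other genes the S phase median was 0.78 and the difference 0.19. Against a null of 0.5 (glmTreat) 0 members were called lower, 0 of them in S phase. Of the other replication genes 20 were called higher and 1 lower against it. Of the other mitosis genes 46 were called higher and 4 lower, and of the transcription factors 6 higher and 0 lower. The share of all genes called against this null was not computed. Of 702 values of single members over 16 alternatives, 693 kept their direction and their side of the threshold, 9 lost their call, all under glmTreat, and 0 reversed. No scaling moved the median of all genes by more than 0.06. No paired analysis was possible because the labels give no replicate numbers. Depth limits Hmgb2, Gins1 and Ccnb1 most, which had the fewest reads.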
